A study of Mus musculus with 4 samples.

Results

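This account follows 10 genes known as transcriptional targets of p53 (Mdm2, Ccng1, Trp53inp1, Sesn1, Sesn2, Gdf15, Phlda3, Zmat3, Aen and Plk2) in neuron-like cells given an inhibitor of the acetyl-CoA synthetase ACSS2. They were taken by gene symbol from a table of 24341 genes, and all 10 were found there. Targets whose best known role is cell cycle arrest or cell death were left out of the 10. The data were 4 RNA sequencing libraries of mouse CAD cells (Cath.-a-differentiated). For 2 libraries the cells had received ACSS2i, an inhibitor that the labels name as a methoxyethyl urea of a dithienyl quinoxaline, at 20 µM for 24 h. For the other 2 they had received DMSO, the solvent, for 24 h. In both groups the cells had been kept for 5 days in medium without serum, the condition under which this line takes on a neuron-like form. Separate cultures are not stated for the replicates, and p-values therefore reflect only how far these particular libraries lie apart, part of which may be technical.

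As background, p53, encoded by Trp53 in the mouse, is a transcription factor that is kept low by the ubiquitin ligase Mdm2 and accumulates after DNA damage and other stress. It binds a response element made of a pair of half-sites and raises a set of genes that includes Mdm2 itself, so that the pathway holds its own brake. Some of its targets are also driven by other factors: Gdf15 and Sesn2 are known targets of ATF4 and CHOP, the factors of the integrated stress response. CAD cells are a single line derived from Cath.a, a brain tumour line from a mouse that carried the SV40 T antigen, a viral protein that binds p53. The CAD variant is known to have lost expression of T antigen. Whether p53 is functional in these libraries was not tested.

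The promoter sequences are shown first, because the 10 genes are grouped by a shared regulator. RefSeq windows of the GRCm38.p6 build, running from 250 bases before to 50 bases after each start, were at hand for 8 of the 10 genes (11 windows). Trp53inp1 and Zmat3 had none. The windows were searched on both strands for the p53 half-site, a motif of 10 bases that reads the same on both strands. A half-site was present in windows of 4 of these 8 genes, 5 of the 11 windows, against 8.36% of all 32851 windows in the table. The 2 Aen windows overlap and hold the same site, and the share over all genes was not computed. A pair of adjacent half-sites was found in 0 of the 11 windows and in 0.00913% of all windows. Only exact half-sites with no bases between them were counted as a pair. The 4 stretches, with the half-site in capitals and 10 bases on either side, are given 5′ to 3′ on the strand of the gene.
Mdm2, chr10:117710925-117710954, minus strand: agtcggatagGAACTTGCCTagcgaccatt
Ccng1, chr11:40755452-40755481, minus strand: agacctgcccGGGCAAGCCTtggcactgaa
Sesn1, chr10:41887256-41887285, plus strand: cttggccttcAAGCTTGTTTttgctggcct
Aen, chr7:78895927-78895956, plus strand: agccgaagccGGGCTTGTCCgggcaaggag
The half-site began 186 bases before the start for Mdm2 and 185 for Ccng1. The 10 bases directly before the Ccng1 half-site, agacctgccc, are a near match to another half-site and were not counted. For Sesn1 it began 173 bases before 1 of the 2 starts with a window. That start lies inside the annotated span of Sesn1, chromosome 10, 41810574 to 41908436. The Aen site lay 121 bases before one annotated start and 10 bases after another. The motif CATGNNNNNNCATG, a tandem of half-site cores, was in 0 of the 11 windows and in 0.712% of all windows.

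Gdf15, which had the largest log2 fold change of FPKM + 1 among the 10 genes in either direction, had no p53 half-site in either of its windows. The 250 bases before the more upstream of its 2 starts with a window are shown because the results on this gene carry most of what follows. The last of these bases lie inside the annotated span of the gene, 70629393 to 70632470.
Gdf15, chr8:70632457-70632706, minus strand: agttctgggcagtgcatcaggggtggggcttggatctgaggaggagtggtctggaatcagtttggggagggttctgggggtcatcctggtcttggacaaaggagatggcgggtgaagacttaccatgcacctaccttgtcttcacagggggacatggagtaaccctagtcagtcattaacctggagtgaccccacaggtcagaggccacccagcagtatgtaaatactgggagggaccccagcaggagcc
The element read by ATF4 and CHOP was searched on both strands as TTGCATCA, found in 0 of the 11 windows and 0.895% of all windows. The longer form TGATGCAAT contains the reverse complement of TTGCATCA, so its 0 of the 11 windows follows from the first count. It was in 0.192% of all windows. Only exact matches were counted, and the Gdf15 stretch above holds the near match gtgcatca. These matches describe the letters of short windows only, and elements in introns or farther upstream were not searched.

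Levels are in FPKM, a unit that divides the fragments of a gene by its transcript length and by the size of the library. All 10 genes averaged 1 FPKM or more and entered the test, which covered 11486 genes. Mdm2 was the most abundant, between 57.9 and 159 FPKM over the 4 libraries, and no other of the 10 reached its lowest value. Gdf15 (15.9 to 44.3 FPKM), Phlda3 (18.0 to 39.1 FPKM), Sesn2 (16.5 to 25.9 FPKM), Aen (12.8 to 18.6 FPKM), Ccng1 (9.12 to 13.5 FPKM) and Sesn1 (6.44 to 11.3 FPKM) followed, and each neighbouring pair among these 6 overlapped in range. Zmat3 (1.98 to 4.12 FPKM), Trp53inp1 (2.00 to 3.90 FPKM) and Plk2 (0.407 to 3.04 FPKM) lay below them and overlapped with each other.

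**Figure D1:**
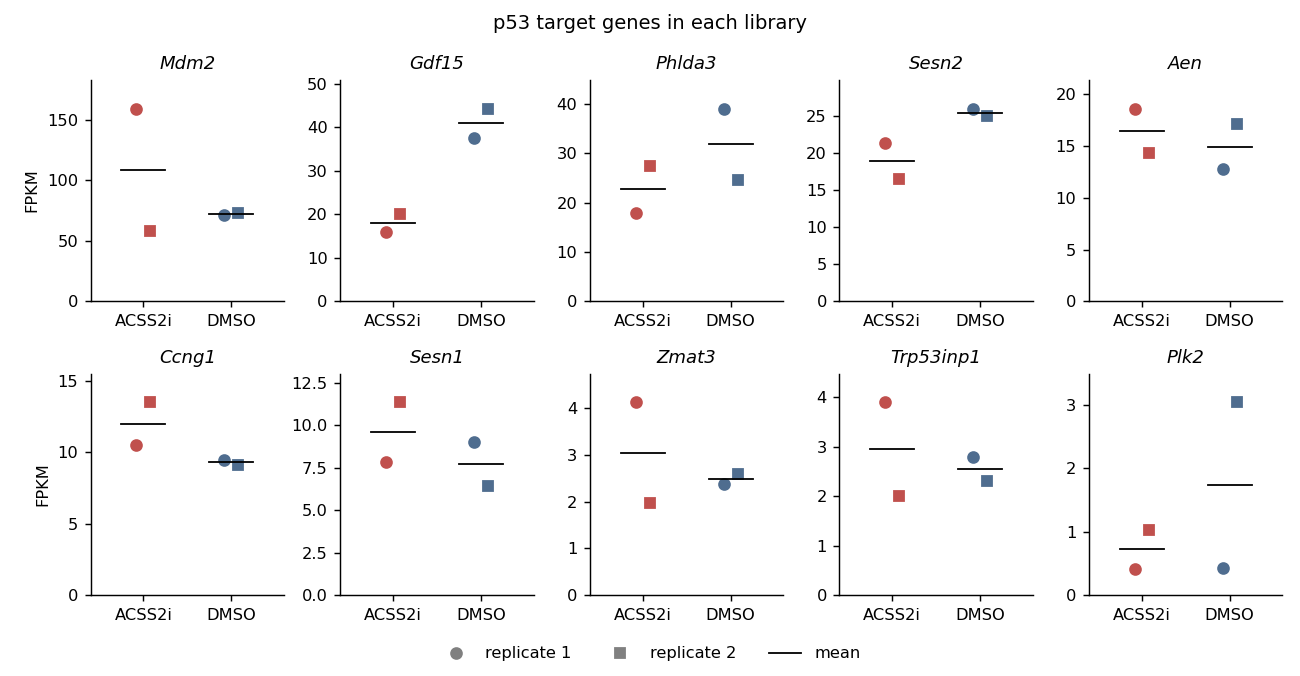
FPKM of the 10 p53 target genes in each library (y axis, from 0, a separate scale for each gene), with ACSS2i in red on the left and DMSO in blue on the right. Circles are replicate 1, squares replicate 2 and lines group means. Gdf15 and Sesn2 were lower in both ACSS2i libraries and Ccng1 was higher in both, and the other 7 genes overlapped between groups.

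By limma's moderated test on log2(FPKM + 1), with Benjamini-Hochberg adjustment over all 11486 genes, 0 of the 10 genes passed an adjusted p of 0.05, as did 3 of all genes tested (0.0261%). At an unadjusted p under 0.05 there was 1 of the 10, Gdf15, which was lower with ACSS2i; 3.67% of all tested genes were lower at that level. The log2 fold changes of the 10 were positive for 6 and negative for 4, with a median of 0.12, against a median of 0.020 over all tested genes. Both ACSS2i libraries lay above both DMSO libraries for 1 of the 10, where 19.0% of all tested genes did so, and below both for 2 of the 10, where 18.3% did. The counts of the 10 were thus close to the background. With 2 libraries in each group the smallest exact permutation p is 0.333, so single genes rest on limma alone.

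Gdf15, a secreted cytokine of the transforming growth factor β superfamily that is known as a marker of cell stress, had the smallest p of the 10 and the log2 fold change of FPKM + 1 farthest from 0. It lies at chromosome 8, 70629393 to 70632470. It stood at 15.9 and 20.0 FPKM in the ACSS2i libraries, against 37.7 and 44.3 FPKM in the DMSO libraries. The groups did not overlap, and every ACSS2i value was well under the lower DMSO value. The means were 18.0 ± 2.90 FPKM in ACSS2i and 41.0 ± 4.70 FPKM in DMSO (SD, n = 2 each), a ratio of 0.439; the ratio of means was 0.416 for Plk2, whose groups overlapped. The log2 fold change was -1.15 ± 0.24 (SE), with a 95% interval of -1.75 to -0.55. The unadjusted p by limma was 0.00328, rank 82 of the 11486 genes, and the adjusted p was 0.458. The unadjusted p ran from 0.00299 to 0.0411 over the 12 alternative settings, while the adjusted p ran from 0.222 to 1. In bulk RNA, less Gdf15 RNA per cell and fewer cells that make it cannot be told apart. Gfral, the receptor of GDF15, was at 0.251 and 0.01 FPKM in ACSS2i and at 0.169 and 0.290 FPKM in DMSO, where 0.01 is the floor of the table.

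Mdm2 and Ccng1 act in the feedback loop on p53, and neither passed the test. Mdm2, at chromosome 10, 117688875 to 117710758, was at 159 and 57.9 FPKM in ACSS2i, against 71.5 and 73.0 FPKM in DMSO. The DMSO libraries were close to each other, and the ACSS2i libraries lay on either side of them, 2.75-fold apart. The log2 fold change of 0.41 ± 0.48 (SE) had a 95% interval of -0.76 to 1.57. It was 1.13 without ACSS2i replicate 2 and -0.31 without ACSS2i replicate 1. Ccng1, cyclin G1, which recruits the phosphatase PP2A to Mdm2, lies at chromosome 11, 40748552 to 40755309. It was at 10.5 and 13.5 FPKM in ACSS2i, against 9.47 and 9.12 FPKM in DMSO. Both ACSS2i values were higher, by a log2 fold change of 0.33 ± 0.24 (SE; 95% interval -0.25 to 0.91) that did not pass (limma, adjusted p = 0.822). It was 0.16 without ACSS2i replicate 2 and 0.49 without ACSS2i replicate 1. It was the single gene of the 10 with both ACSS2i libraries above both DMSO libraries.

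Sesn1 and Sesn2 encode sestrins, which restrain the growth kinase complex mTORC1 when amino acids or redox balance fail. Their log2 fold changes differed in sign, and both 95% intervals included 0. Sesn2, a leucine sensor, lies at chromosome 4, 132492804 to 132510456. It was at 21.3 and 16.5 FPKM in ACSS2i, against 25.9 and 24.9 FPKM in DMSO. Its groups did not overlap, and the log2 fold change was -0.42 ± 0.24 (SE; 95% interval -1.0 to 0.17; limma, unadjusted p = 0.131, adjusted p = 0.804). It was -0.24 without ACSS2i replicate 2. Sesn1, at chromosome 10, 41810574 to 41908436, was at 7.86 and 11.3 FPKM in ACSS2i, against 9.04 and 6.44 FPKM in DMSO. The groups overlapped, with a log2 fold change of 0.27 (95% interval -0.43 to 0.98) that was 0.035 without ACSS2i replicate 2, 0.059 without DMSO replicate 2 and 0.51 without ACSS2i replicate 1. Sesn3, their paralog and a target of FoxO factors, was at 6.92 and 6.12 FPKM in ACSS2i and at 5.61 and 4.04 FPKM in DMSO. The difference between the sestrins was not tested.

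Trp53inp1, a stress protein with a role in autophagy, lies at chromosome 4, 11156441 to 11174379. It was at 3.90 and 2.00 FPKM in ACSS2i, against 2.80 and 2.31 FPKM in DMSO. Zmat3, a zinc finger protein that binds RNA and acts in splicing, lies at chromosome 3, 32334792 to 32365665, and had the same arrangement: 4.12 and 1.98 FPKM in ACSS2i, against 2.39 and 2.58 FPKM in DMSO. Aen, an apoptosis-enhancing nuclease at chromosome 7, 78895927 to 78911209, was at 18.6 and 14.3 FPKM in ACSS2i, against 12.8 and 17.1 FPKM in DMSO. In each of these 3 genes ACSS2i replicate 1 held the highest of the 4 values, and the groups overlapped. In Trp53inp1 and Zmat3 ACSS2i replicate 2 held the lowest. Their log2 fold changes were 0.11, 0.17 and 0.13, each smaller than its SE (0.34, 0.35 and 0.26).

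Phlda3, which competes with the kinase Akt for membrane lipids, lies at chromosome 1, 135766085 to 135769134. It was at 18.0 and 27.4 FPKM in ACSS2i, against 39.1 and 24.6 FPKM in DMSO. The groups overlapped, the library at each end being a replicate 1, and the log2 fold change was -0.46 ± 0.33 (SE; 95% interval -1.28 to 0.35). Leaving out ACSS2i replicate 1 gave -0.17 and leaving out ACSS2i replicate 2 gave -0.75. Leaving out DMSO replicate 1 gave -0.14 and leaving out DMSO replicate 2 gave -0.79. Plk2, a polo-like kinase that neurons also use in weakening synapses, lies at chromosome 13, 110395044 to 110400844. It was at 0.407 and 1.03 FPKM in ACSS2i, against 0.428 and 3.04 FPKM in DMSO. DMSO replicate 2 alone was high, and without it the log2 fold change was 0.24 in place of -0.51. At the nominal depth of the libraries the Plk2 values stood for about 9 and 29 reads in ACSS2i and about 14 and 29 reads in DMSO, so its level was the least precise of the 10.

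**Figure D2:**
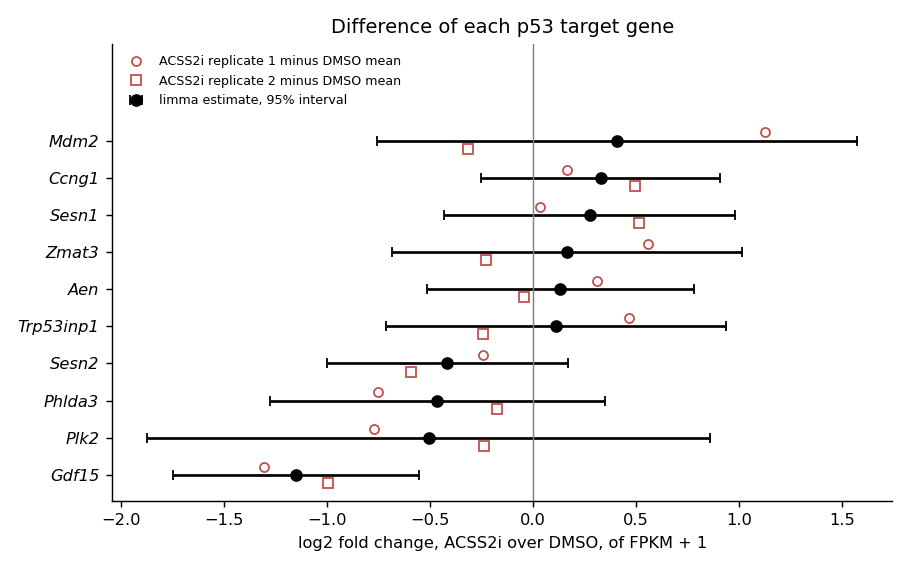
Log2 fold change of FPKM + 1, ACSS2i over DMSO (x axis), for each of the 10 genes (y axis, largest at the top). Black points are limma estimates with 95% intervals; open red circles and squares are ACSS2i replicates 1 and 2 minus the DMSO mean. The interval of Gdf15, -1.75 to -0.55, lies below 0, and the other 9 intervals include 0.

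Much of the variation among the 10 genes lay between the ACSS2i libraries. The median absolute difference between the ACSS2i libraries was 0.51 on the log2(FPKM + 1) scale over the 10 genes and 0.36 over all tested genes. Between the DMSO libraries it was 0.21 over the 10 genes and 0.23 over all tested genes. In 4 of the 10 genes, Mdm2, Zmat3, Trp53inp1 and Aen, ACSS2i replicate 1 lay above the DMSO mean and ACSS2i replicate 2 below it (40.0%), as in 20.6% of all tested genes. The reverse arrangement occurred in 0 of the 10, against 2416 of the 11486 tested genes. Both ACSS2i libraries lay below the DMSO mean for Gdf15, Sesn2, Phlda3 and Plk2 and above it for Ccng1 and Sesn1. Among the 11486 tested genes both lay below it in 3224 and above it in 3454. The median of the 10 genes relative to the DMSO mean was 0.099 in ACSS2i replicate 1 and -0.23 in ACSS2i replicate 2.

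Targets of the integrated stress response were read in the same libraries. In a list of 24 ATF4 and CHOP targets, with ATF4 and CHOP themselves, 22 were tested. The 22 had a median log2 fold change of 0.0042, with 11 positive, 11 negative and 0 called over all genes. At an unadjusted p under 0.05 there were 0 of the 22. Their median was -0.15 without ACSS2i replicate 1 and 0.20 without ACSS2i replicate 2. Of the 22, 9 had ACSS2i replicate 1 above and replicate 2 below the DMSO mean (40.9%, against 20.6% of all tested genes), and 4 had the reverse arrangement (18.2%, against 2416 of the 11486 tested genes). The following 4 genes were chosen after their values were seen and do not stand for the list. Ddit3, which encodes CHOP, was at 1602 and 324 FPKM in ACSS2i, against 1110 and 1162 FPKM in DMSO. Atf3, a stress-induced factor, was at 158 and 16.7 FPKM in ACSS2i, against 40.5 and 65.0 FPKM in DMSO, and Ppp1r15a, the phosphatase subunit GADD34, at 389 and 70.7 FPKM, against 207 and 290.3 FPKM. In each of these 3, as in Mdm2, ACSS2i replicate 1 was the highest library and ACSS2i replicate 2 the lowest. Gdf15 did not have this arrangement, since it was low in both ACSS2i libraries. Atf4 itself was at 1433 and 1053 FPKM in ACSS2i, against 1176 and 1093 FPKM in DMSO. The part of these differences between libraries in the values of the 10 genes was not tested.

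**Figure D3:**
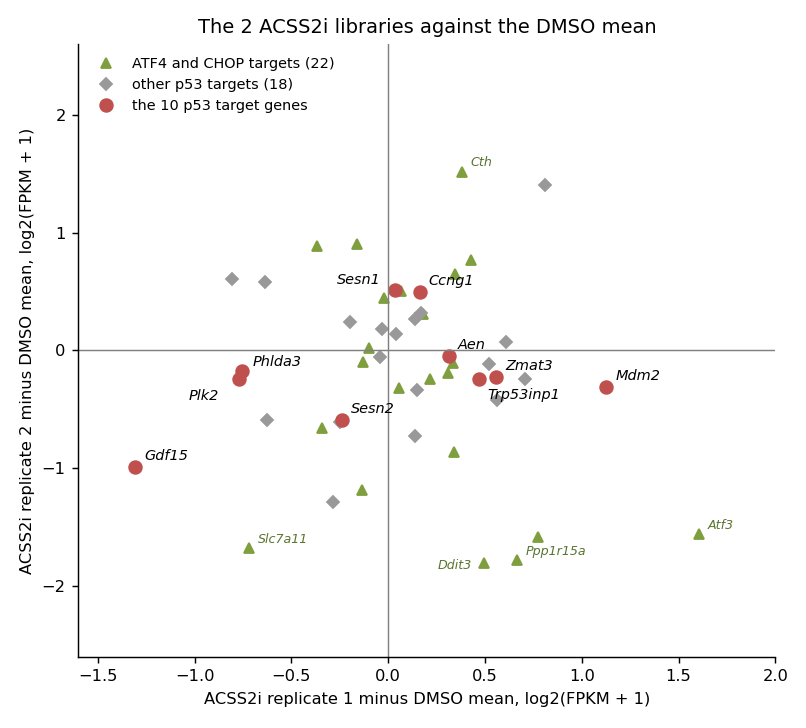
Each point is a gene, placed by its value in ACSS2i replicate 1 (x axis) and ACSS2i replicate 2 (y axis) minus the DMSO mean, on the log2(FPKM + 1) scale. Gdf15 lies at -1.31 and -0.99, low in both, whereas Mdm2 lies at 1.13 and -0.31, and Ddit3, Atf3 and Ppp1r15a lie high in replicate 1 and low in replicate 2.

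The 3 ATF4 and CHOP targets with the smallest p were the amino acid enzymes Cth and Asns and the cystine carrier Slc7a11. Cth was at 24.3 and 54.7 FPKM in ACSS2i, against 20.0 and 17.1 FPKM in DMSO. Asns was at 461 and 585 FPKM in ACSS2i, against 303 and 389 FPKM in DMSO. Slc7a11 was at 11.5 and 5.41 FPKM in ACSS2i, against 10.5 and 35.7 FPKM in DMSO. Cth and Asns were thus higher in both ACSS2i libraries, while Slc7a11 overlapped between groups, and none of the 3 passed (limma, adjusted p = 0.733, 0.785 and 0.785). Of the 22 tested, 4 had both ACSS2i libraries above both DMSO libraries, where 19.0% of all tested genes did. In 1 both lay below, where 18.3% did.

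Trp53 and the genes that control p53 gave no called difference. Trp53 was at 38.5 and 28.5 FPKM in ACSS2i, against 30.1 and 40.2 FPKM in DMSO, with overlapping groups and a log2 fold change of -0.067 ± 0.27 (SE). Of 13 tested regulators, Trp53 included, 9 had positive and 4 negative log2 fold changes, the median was 0.10 and 0 passed by limma, with 0 also at an unadjusted p under 0.05. Mdm4, the partner of Mdm2 that blocks p53 activity, was at 28.2 and 19.1 FPKM in ACSS2i, against 37.1 and 31.1 FPKM in DMSO. Both ACSS2i values were below both DMSO values, with a log2 fold change of -0.53 ± 0.28 (SE; limma, adjusted p = 0.785). Hipk2, a kinase that activates p53, was at 7.86 and 7.71 FPKM in ACSS2i, against 10.5 and 12.7 FPKM in DMSO, and the checkpoint kinase Chek1 at 1.77 and 2.20 FPKM, against 0.944 and 0.597 FPKM. These groups did not overlap either (adjusted p = 0.750 and 0.733 by limma). Of the 13 regulators, 3 had both ACSS2i libraries above both DMSO libraries, where 19.0% of all tested genes did. Another 3 had both below, where 18.3% did. Chek1 averaged 0.770 FPKM in DMSO and entered the test only through its ACSS2i values, so its ACSS2i mean had to be higher. Cdkn2a, whose product Arf restrains Mdm2, was chosen after its values were seen. It was at 23.6 and 48.3 FPKM in ACSS2i, against 20.1 and 41.1 FPKM in DMSO, and replicate 2 was the higher library in both groups.

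Other p53 targets outside the 10 gave a like picture. Of 24 genes with a row, 18 were tested, with 10 positive, 8 negative, 0 called over all genes, and 1 higher and 1 lower at an unadjusted p under 0.05, where 3.29% of all tested genes were higher and 3.67% lower. Their median log2 fold change was 0.046. The 1 that was higher at that level was Ckap2, a spindle protein of dividing cells, at 13.4 and 20.8 FPKM in ACSS2i, against 6.36 and 8.18 FPKM in DMSO (log2 fold change 1.11 ± 0.29, SE; limma, adjusted p = 0.507). The 1 that was lower was the antiproliferative gene Btg2, at 4.29 and 4.41 FPKM in ACSS2i, against 6.50 and 7.85 FPKM in DMSO (adjusted p = 0.707). Ephx1, an epoxide hydrolase, was at 19.3 and 9.13 FPKM in ACSS2i, against 26.2 and 21.4 FPKM in DMSO. Gadd45a, a DNA damage-inducible gene picked after its values were seen, was at 34.9 and 17.2 FPKM in ACSS2i, against 18.5 and 29.4 FPKM in DMSO.

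Among the p53 targets of arrest and death, 5 of 9 were tested and 0 passed by limma, with 0 at an unadjusted p under 0.05. Cdkn1a, the cell cycle inhibitor p21, was at 13.0 and 36.9 FPKM in ACSS2i, against 17.9 and 24.4 FPKM in DMSO, so that its ACSS2i libraries lay on either side of both DMSO libraries in the opposite order to Mdm2. The death effector Bax was at 33.9 and 34.9 FPKM in ACSS2i, against 33.8 and 28.3 FPKM in DMSO. Bbc3 (PUMA) was at 12.9 and 11.6 FPKM in ACSS2i, against 19.3 and 14.0 FPKM in DMSO, and the apoptosome scaffold Apaf1 at 2.23 and 3.14 FPKM, against 1.54 and 1.47 FPKM. In each of these 3 genes the ACSS2i values did not overlap the DMSO values, but the direction differed. Of the 5 tested, Bax and Apaf1 lay higher in this way, where 19.0% of all tested genes did. Bbc3 alone lay lower, where 18.3% did. For Bax the nearest values were 33.89 FPKM in ACSS2i replicate 1 and 33.77 FPKM in DMSO replicate 1. The death genes Fas and Pmaip1 were at the floor of 0.01 FPKM in every library except DMSO replicate 1, where Pmaip1 was at 0.0324 FPKM.

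Genes of G2 and mitosis, which p53 lowers through p21, were higher in both ACSS2i libraries than in both DMSO libraries in all 14 tested of 15, with a median log2 fold change of 2.05. The same held for 19.0% of all tested genes. Of the 14, 9 averaged under 1 FPKM in DMSO and passed the filter on low values through their ACSS2i values. Their ACSS2i mean FPKM therefore had to be higher, and the count is given as a description. Over all genes 0 of the 14 passed by limma, while Top2a passed with the replicate block (adjusted p = 0.0336). Mki67, the marker Ki-67, was at 22.2 and 24.9 FPKM in ACSS2i, against 1.18 and 4.13 FPKM in DMSO. Top2a was at 19.6 and 44.4 FPKM in ACSS2i, against 1.71 and 4.02 FPKM in DMSO, and the mitotic motor Cenpe at 4.79 and 4.63 FPKM, against 0.459 and 0.786 FPKM. The 10 p53 targets did not share this arrangement, with 6 positive and 4 negative, and the part of the share of dividing cells in their values was not tested.

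**Figure D4:**
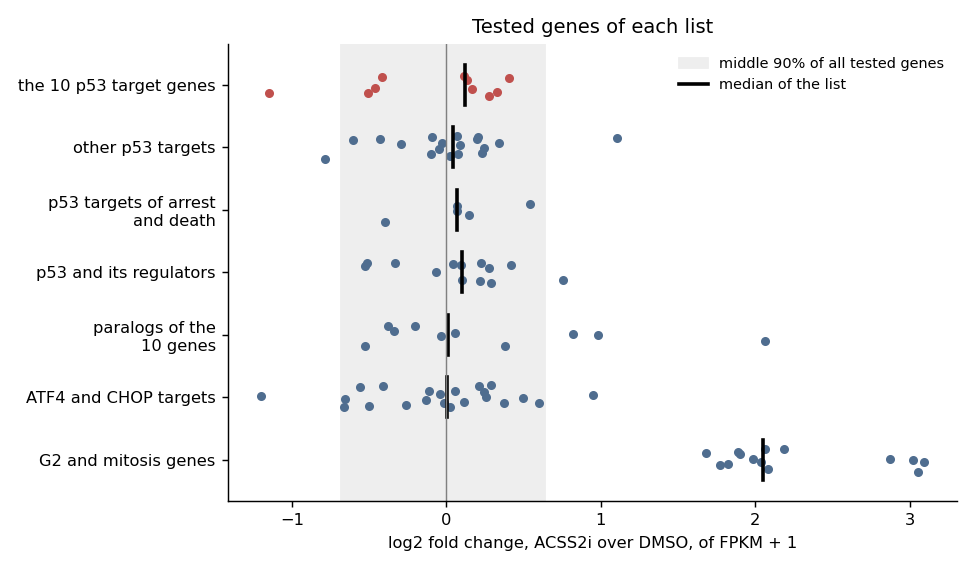
Log2 fold change of FPKM + 1, ACSS2i over DMSO (x axis), of every tested gene in 7 lists (rows), with the 10 p53 target genes in red and the median of each list as a black bar. The grey band spans the middle 90% of all tested genes, -0.68 to 0.64. Of the 10 genes Gdf15 lies outside it, and the G2 and mitosis genes all lie above it. Of those 14 genes, 9 averaged under 1 FPKM in DMSO and passed the filter through their ACSS2i values, so their ACSS2i mean FPKM had to be higher.

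Paralogs of the 10 genes were set beside them. Of 14 with a row, 10 were tested, with a median log2 fold change of 0.012 and 0 called over all genes by limma. At an unadjusted p under 0.05, 2 of these 10 paralogs were higher, where 3.29% of all tested genes were. They were the mitotic kinases Plk1 and Plk4. Plk1 was at 3.00 and 11.1 FPKM in ACSS2i, against 0.516 and 0.817 FPKM in DMSO, and Plk4 at 12.8 and 10.9 FPKM, against 4.27 and 7.01 FPKM. Plk1 averaged 0.667 FPKM in DMSO and entered the test only through its ACSS2i values, so its ACSS2i mean had to be higher. Plk3, which like Plk2 responds to stress, was at 18.7 and 19.1 FPKM in ACSS2i, against 16.3 and 29.3 FPKM in DMSO, and overlapped between groups. Ccng2, the paralog of Ccng1 that is not a p53 target in textbook accounts, was at 14.8 and 36.0 FPKM in ACSS2i, against 13.8 and 11.7 FPKM in DMSO (log2 fold change 0.82 ± 0.42, SE; 0.21 without ACSS2i replicate 2 and 1.44 without ACSS2i replicate 1). Trp53inp2 was at 15.7 and 16.6 FPKM in ACSS2i, against 18.4 and 14.8 FPKM in DMSO, with a log2 fold change of -0.033.

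The libraries themselves were uneven in depth. Read from the steps between low values, nominal depths were 7880000 and 10000000 reads in ACSS2i and 11700000 and 3400000 reads in DMSO, so 1 read in a transcript of 3 kb was worth 0.0286 to 0.0979 FPKM. Of 14 markers of catecholaminergic neuronal cells 12 were above 1 FPKM in every library, with Th, tyrosine hydroxylase, at 2.92 to 4.09 FPKM. The defining noradrenergic enzyme Dbh was at 0.226 to 0.624 FPKM, and Ddc, of dopamine synthesis, at 0.0671 FPKM in ACSS2i replicate 1. The summed level of the 14 markers was 5386 and 4095 FPKM in ACSS2i and 8185 and 12097 FPKM in DMSO, a sum dominated by Chgb. The 5 astrocyte, 5 microglia and 4 fibroblast markers were at most at 0.5 FPKM in every library. The oligodendrocyte marker Mbp was at 2.10 and 2.92 FPKM in ACSS2i and at 2.10 and 2.40 FPKM in DMSO, and Mog, Mag and Mobp were at most at 0.5 FPKM. Of 4 endothelial markers Pecam1 was at 1.62 and 0.717 FPKM in ACSS2i and at 0.355 and 0.348 FPKM in DMSO, and Cdh5, Cldn5 and Kdr were at most at 0.5 FPKM.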

How the data were processed

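The deposited values are taken as FPKM, because the submitters' processing notes name Cufflinks 2.2.1 and the header gives no unit. These notes also name bcl2fastq 02.14.01.07, STAR 2.3.0, Cuffdiff and the build mm10; the annotation, strand setting and the adjustment named in the table's title are not given in the sources used here. Polyadenylated RNA went into ScriptSeq v2 libraries sequenced in 1 lane, per the labels' protocols. The floor was 0.01. Sept7 held a failure mark in 1 library and was left out, leaving 24340 genes. Here log2(FPKM + 1) was tested for the 11486 genes averaging 1 FPKM or more, with limma 3.58.1 (R 4.3.3, mean-variance trend, two-sided) and checked on simulated data. Fold changes on this scale understate low genes. Whole reads were not recovered for all genes, so no count test was run. Depths rest on the most common ratio of values of at most 0.5 FPKM and on GENCODE M21 lengths; they are nominal. Coordinates are RefSeq's, GRCm38.p6. Sesn1 and Sesn2 each overlap 1 gene on the same strand that has no row in the table. Genes named were the 10, Trp53, Mdm4, Cdkn1a, Sesn3, Ccng2, Trp53inp2 and Plk3, up to 3 with the smallest p of each list, the 5 profiles nearest to Gdf15, and those stated as picked later. The 10 genes and the lists were chosen with earlier results of these data known. A marker gene is not reported here.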

Additional observations from a re-analysis of the deposited data

How the results depend on the processing

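In 12 alternative settings 0 of the 10 genes passed an adjusted p of 0.05, and Gdf15 kept its direction and an unadjusted p under 0.05 in every one, with log2 fold changes of -1.31 to -0.99. Over all genes, 6 were called with a pseudocount of 0.1 (4 lower), 0 with a pseudocount of 5, 0 without a filter (with 1342 at an unadjusted p under 0.05) and 2 with a mean of at least 5 FPKM (1 higher, 1 lower). The median of the G2 and mitosis genes was 3.38, 1.00 and 3.02 with pseudocounts of 0.1 and 5 and a mean of at least 5 FPKM. The correlation of deviations between libraries with the same replicate number was -0.017, which cannot show whether these libraries were paired. With the replicate block 8 genes were called by limma, 4 higher (Top2a among them, adjusted p = 0.0336) and 4 lower, and 0 of the 10. Leaving out 1 library at a time takes the spread from the intact pair and a lone library assumed to vary like it. Then 13 to 26 genes were called (3 to 16 higher, 0 to 18 lower), 362 to 1662 had an unadjusted p under 0.05, and 1 to 2 of the 10 did: besides Gdf15, Sesn2 without ACSS2i replicate 1, Mdm2 without ACSS2i replicate 2 and Plk2 without DMSO replicate 1. Of the 10, 2 to 5 lay higher and 3 to 5 lower without overlap, where 31.0% to 39.0% of all tested genes lay higher and 29.1% to 37.0% lower. List medians ran from -0.23 to 0.13 for the 10, 0.020 to 0.17 for the regulators, -0.059 to 0.089 for other targets, -0.23 to 0.37 for targets of arrest and death, -0.15 to 0.20 for ATF4 and CHOP targets, -0.064 to 0.19 for paralogs and 0.014 to 0.25 for partners. Log2 fold changes that changed sign ran from -0.31 to 1.13 for Mdm2, -0.24 to 0.47 for Trp53inp1, -0.23 to 0.56 for Zmat3, -0.065 to 0.33 for Aen, -1.26 to 0.24 for Plk2, -0.28 to 0.14 for Trp53, -0.65 to 0.79 for Cdkn1a, -0.18 to 0.12 for Trp53inp2, -0.61 to 0.20 for Plk3, -0.11 to 0.34 for Atf4 (-0.093 under quantile normalization), -1.56 to 1.61 for Atf3, -0.42 to 0.56 for Gadd45a, -1.81 to 0.50 for Ddit3, -1.78 to 0.66 for Ppp1r15a and -0.28 to 0.73 for Cdkn2a. Without a change of sign, the values ran from 0.16 to 0.49 for Ccng1, 0.035 to 0.51 for Sesn1, -0.59 to -0.24 for Sesn2, -0.79 to -0.14 for Phlda3, 0.21 to 1.44 for Ccng2, 0.38 to 1.52 for Cth and 0.12 to 1.13 for Prdx2. The cause was not tested.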

Other observations

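Genes whose products work with those of the 10 were also read. Of 18 partners with a row, 17 were tested, with 10 positive, 7 negative, a median log2 fold change of 0.20 and 0 called by limma, also at an unadjusted p under 0.05. Of the 17, 5 had both ACSS2i libraries above both DMSO libraries, where 19.0% of all tested genes did. Another 3 had both below, where 18.3% did. Seh1l, a subunit of the GATOR2 complex that sestrins bind, was at 22.8 and 28.3 FPKM in ACSS2i, against 20.1 and 14.8 FPKM in DMSO, and its groups did not overlap. Mios, of the same complex, was at 24.2 and 17.0 FPKM in ACSS2i, against 18.9 and 11.6 FPKM in DMSO. The peroxiredoxin Prdx2 was at 272 and 549 FPKM in ACSS2i, against 263 and 239 FPKM in DMSO.

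Among 8661 other genes averaging 5 FPKM or more, the 5 with profiles over the 4 libraries nearest to that of Gdf15 were Lgals3bp, Fads3, Sstr2, Reep2 and Thsd7a. Likeness was the largest absolute difference between profiles centred on their mean, on the log2(FPKM + 1) scale, and it was 0.019 for Lgals3bp and 0.14 for Thsd7a. Lgals3bp, a secreted glycoprotein, was at 25.9 and 32.6 FPKM in ACSS2i, against 61.7 and 71.3 FPKM in DMSO. Sstr2, a somatostatin receptor, was at 2.62 and 3.10 FPKM in ACSS2i, against 6.74 and 8.85 FPKM in DMSO. A profile of 4 values is matched by many genes, so this describes these libraries only.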
